A study of Homo sapiens with 6 samples.

Results

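The miR-30 family is a group of mature miRNAs cut from 6 related hairpins, miR-30a, 30b, 30c-1, 30c-2, 30d and 30e. Its members were taken by name, as every arm of those hairpins listed in the deposited tables, which gave 11 of 2575 entries. Small RNAs had been sequenced from exosomes, vesicles shed into the culture medium, of HCT116, an established human colorectal cancer line at passage 16 to 19. There were 3 libraries titled untreated, from cells given bacterial medium alone, and 3 titled ETBF, from cells kept for 6 h with enterotoxigenic Bacteroides fragilis (ETBF) at a multiplicity of infection of 500. The names of the deposited files give the opposite group for 6 of 6 libraries. Groups here follow the titles, and every direction turns round if the file names are the correct ones. All libraries come from 1 cell line. Nothing in the labels says that the replicates were grown separately, so the p-values given here reflect only how far these libraries differ, which could be technical variation.

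A miRNA hairpin has 2 arms, named 5p and 3p after the end they lie nearest. Usually 1 arm, the guide, is kept in an Argonaute protein and pairs with target messages mainly through its seed, bases 2 to 8, while the other arm is mostly degraded. In the miR-30 family the 5p arms are the usual guides. They are abundant in epithelia, kidney, heart and muscle, and are known for restraining the epithelial-mesenchymal transition through the transcription factor SNAI1 and for lowering autophagy through the Beclin 1 message.

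Mature sequences from RefSeq (GRCh38.p14) were matched to 7 of the 11 entries; those of miR-30b-5p, miR-30b-3p, miR-30d-5p and miR-30d-3p were not used here. All miR-30 guides, those of miR-30b and miR-30d included, are known to share 1 seed. The guide arms of miR-30a, 30c and 30e are printed to show the seed that defines the family, in capitals, and the few bases by which they can be told apart.
hsa-miR-30a-5p: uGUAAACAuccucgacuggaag
hsa-miR-30e-5p: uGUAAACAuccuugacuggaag
hsa-miR-30c-5p: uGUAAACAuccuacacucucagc
These 3 had the seed GUAAACA. Counted from 1 at the 5′ end, miR-30a-5p and miR-30e-5p differed by the single substitution C13U (the base of miR-30a is written before the number), so a read with 1 mismatch there could be assigned to either. The sources used here do not give whether the authors' alignment allowed mismatches. The 3 arms printed here were 22 or 23 bases long, and no correction for length was made. Whether different entries were captured equally well in sequencing was not tested.

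The 3p arms fall into other seed groups and are shown because the family's widest difference between the titled groups was in one of them.
hsa-miR-30a-3p: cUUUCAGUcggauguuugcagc
hsa-miR-30e-3p: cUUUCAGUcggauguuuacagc
hsa-miR-30c-1-3p: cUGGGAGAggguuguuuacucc
hsa-miR-30c-2-3p: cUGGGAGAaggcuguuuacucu
The 3p arms of miR-30a and miR-30e shared the seed UUUCAGU and differed by G18A alone. Those of miR-30c-1 and miR-30c-2 shared UGGGAGA, also the seed of miR-6788-5p, which had 0 counts in the 6 libraries.

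The hairpins lie in clusters, so that 1 primary transcript can carry a pair. In GRCh38.p14, MIR30E (chr1:40754355-40754446, plus strand) and MIR30C1 (chr1:40757284-40757372, plus strand) are 2837 bases apart. Both lie in introns of NFYC, which encodes a subunit of the CCAAT-binding factor NF-Y, in all 16 of its GENCODE release 29 transcripts that span them. MIR30C2 (chr6:71376960-71377031, minus strand) and MIR30A (chr6:71403551-71403621, minus strand) are 26519 bases apart in introns of LINC00472, a long non-coding RNA gene, in both of its 2 spanning transcripts. miR-30b and miR-30d form the remaining cluster. These positions are not those of the submitters' build, GRCh37.p5, and no value here was read by position. The hairpins of miR-30a and miR-30e show how alike the precursors are that are compared arm by arm further on, with both mature arms in capitals.
MIR30A: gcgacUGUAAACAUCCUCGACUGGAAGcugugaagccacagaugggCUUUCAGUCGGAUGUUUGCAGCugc
MIR30E: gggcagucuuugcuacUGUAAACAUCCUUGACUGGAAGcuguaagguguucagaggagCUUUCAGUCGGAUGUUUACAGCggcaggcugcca

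Libraries held 200207 to 417321 counts. Levels are given as CPM, counts per 1000000 after scaling of the library size by the TMM method. The muscle markers miR-1, miR-133a, miR-133b and miR-206 summed to 19536 to 20919 CPM in the titled untreated and 15397 to 18775 in the titled ETBF libraries, the liver marker miR-122-5p stood at 5420 to 6556 and 4804 to 5062, and the 5 colorectal epithelial markers summed to 26192 to 27385 and 22317 to 25305. Markers of fibroblasts and endothelium summed to 4301 to 5551 and 3965 to 4688, of neurones to 759 to 1301 and 1243 to 1505, of red blood cells to 285 to 301 and 239 to 320, and of white blood cells to 381 to 434 and 284 to 415. Each of the 23 markers had some counts over all libraries, but whether each was present in every library was not tested. A sum can rest mainly on a single marker. In the muscle sums, miR-1 had means of 18228 CPM in the titled untreated and 15856 in the titled ETBF libraries. The sums of the other lists are not split by marker here, so they do not show that each marker was well detected. Tissues other than colon also express miR-30, and the part that such RNA has in the values below was not tested. In bulk exosome RNA, fewer vesicles from a given source and less of a miRNA per vesicle cannot be told apart.

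miR-30 entries took 1.50%, 1.37% and 1.49% of the counts of titled untreated replicates 1, 2 and 3, and 1.58%, 1.18% and 0.996% of those of titled ETBF replicates 1, 2 and 3. The 95% Wilson intervals, which cover counting error only, were at their widest in titled untreated replicate 1, from 1.449 to 1.555%. Titled ETBF replicate 1 had the highest share of the 6 libraries and the other two titled ETBF libraries the lowest, so the groups overlapped. The means were 1.45% ± 0.0748 and 1.25% ± 0.298 (SD, n = 3), a difference of -0.200 percentage points. That difference depended on what else was in the total: it was -0.00931 with miR-148a-3p, the most abundant entry, left out of the total, and -0.588 with miR-1246, miR-6087 and miR-7641, entries that overlap structural RNAs, left out.

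The guides held 96.6% of all miR-30 counts. miR-30a-5p was the most abundant at a mean of 6472 CPM over the 6 libraries, the 17th highest of all entries. miR-30d-5p followed at 3089, miR-30c-5p at 1648, miR-30e-5p at 1275 and miR-30b-5p at 483.5 CPM. Each of these guides lay above the next in every library, with ratios of mean levels of 2.10, 1.87, 1.29 and 2.64. The order held in both titled groups, but the place of miR-30c-5p is uncertain because its mature sequence has 2 loci. Some reads were counted at more than 1 place: miR-199a-3p, with 2 loci, had 2.00 to 2.002 times the counts of miR-199b-3p, whose mature sequence is the same. Of the counts of miR-30c-5p, 4 of 6 were even, and of those of 26 tested entries with 2 loci 64.1% of 156 were even, against 49.9% of 834 for entries with 1 locus. With its counts halved miR-30c-5p would stand at 824.1 CPM, below miR-30e-5p and above miR-30b-5p.

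**Figure D1:**
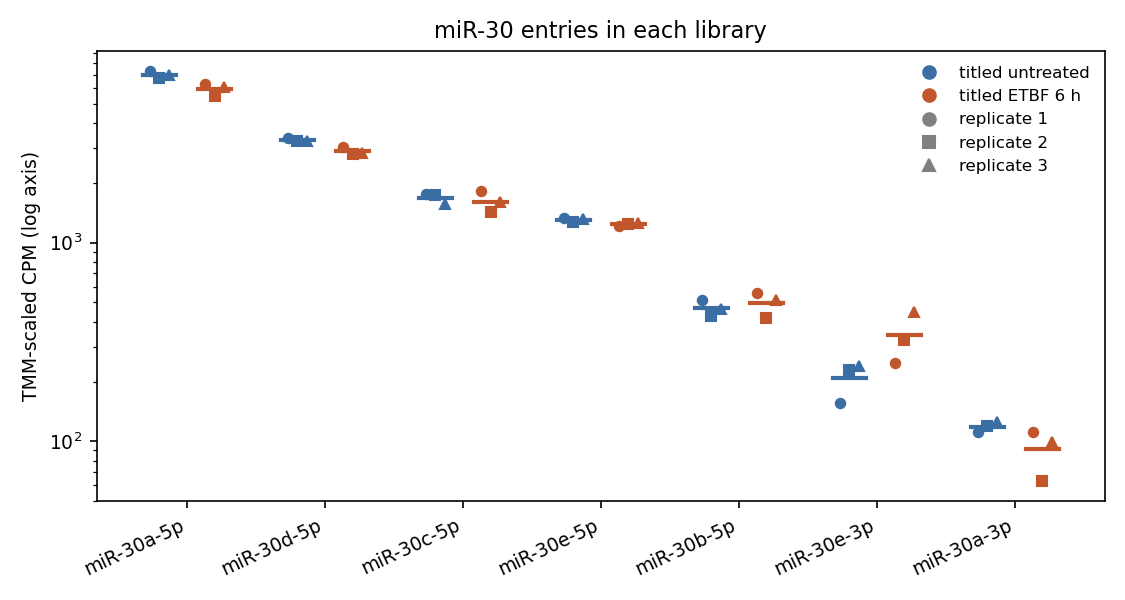
Level of each of the 7 tested miR-30 entries in each library, in TMM-scaled CPM on a log axis. Points are libraries (shape gives the replicate number), lines are group means; the 5 guide arms keep the same order in both titled groups, and miR-30e-3p is the entry whose titled ETBF libraries (249.2 to 449.1) all lie above the titled untreated ones (155.7 to 240.2).

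Of the 11 entries, 7 had enough counts to be tested: the 5 guides, miR-30e-3p and miR-30a-3p. The other 4 were 3p arms with at most 15 counts in a library. At an adjusted p under 0.05, 0 of the 7 differed between the titled groups (edgeR's quasi-likelihood test), beside 28 of the 195 tested entries, 14.4%. With DESeq2 and with limma-voom the count was also 0. At an unadjusted p under 0.05 there were 3 miR-30 entries, miR-30e-3p, miR-30a-5p and miR-30d-5p, beside 33.8% of all tested entries. On the TMM scale, the titled groups did not overlap in 5 of the 7, beside 39.0% of all. Among these 5, the nearest libraries of the groups were almost level for miR-30e-5p (1268 and 1264 CPM) and miR-30a-3p (111.9 and 111.1 CPM). The median log2 fold change of the 7 was -0.07 and that of all tested entries -0.03, with 5 of 7 and 51.8% negative. None of these shares was tested against the rest.

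miR-30a-5p, the guide best known for repressing Beclin 1, had 7307, 6786 and 6959 CPM in titled untreated replicates 1 to 3 (1502, 2457 and 2173 counts) and 6267, 5463 and 6052 in titled ETBF replicates 1 to 3 (1861, 1211 and 1954 counts). On the TMM scale, all 3 titled ETBF libraries lay below all 3 titled untreated ones. The log2 fold change was -0.24 (SE 0.09, 95% interval -0.45 to -0.04, adjusted p = 0.0911). Scaled by library size alone, the log2 fold change was -0.296 (SE 0.216, edgeR adjusted p = 0.462). It was negative in each of the 16 alternative settings, and without titled ETBF replicate 1, the titled ETBF library nearest to the untreated level, it was -0.32 with an adjusted p of 0.0410 (0.0410 to 0.464 over the alternatives).

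miR-30d-5p, encoded beside miR-30b, had 3381, 3270 and 3238 CPM in the titled untreated and 3021, 2801 and 2822 in the titled ETBF libraries. Here too the groups did not overlap on the TMM scale. The log2 fold change was -0.19 (SE 0.08, interval -0.37 to -0.02, adjusted p = 0.114). It was negative in each of the 16 alternative settings (-0.264 to -0.129, adjusted p 0.0831 to 0.486). The unadjusted edgeR p was 0.252 with library size alone and 0.254 with upper-quartile scaling, but 0.044 with the size factors of DESeq2. Across the 6 libraries log2 CPM of miR-30a-5p and miR-30d-5p had a Pearson r of 0.953, although they come from different clusters. That r describes 6 points that share library depth, scaling and the titled groups.

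miR-30e-5p, which differs from miR-30a-5p by 1 base, lay close together in the 6 libraries. It had 1338, 1268 and 1319 CPM in the titled untreated and 1219, 1245 and 1264 in the titled ETBF libraries, a coefficient of variation of 2.78% and 1.80% within the groups. Counting error alone would give about 5.21% and 5.41% at these counts, so the small spread is not a sign of precision beyond that. The groups did not overlap, but the highest titled ETBF library and the lowest titled untreated one were 1264 and 1268 CPM. Its log2 fold change was -0.07 (SE 0.08, interval -0.25 to 0.11, adjusted p = 0.540), so a fall as large as that of miR-30a-5p lies within its interval. Pearson r of miR-30a-5p with miR-30e-5p was 0.756.

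miR-30c-5p and miR-30b-5p overlapped between the titled groups. miR-30c-5p had 1751, 1737 and 1563 CPM in the titled untreated and 1812, 1421 and 1604 in the titled ETBF libraries, and a log2 fold change of -0.06 with an SE of 0.11 (adjusted p = 0.715), whose sign turned with upper-quartile scaling and without titled ETBF replicate 2. miR-30b-5p had 515.7, 428.1 and 464.4 CPM against 559.0, 419.5 and 514.1, with 0.10 (SE 0.14, adjusted p = 0.608), and turned negative without titled ETBF replicate 1. In both entries titled ETBF replicate 1 was the highest of all libraries and titled ETBF replicate 2 the lowest.

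**Figure D2:**
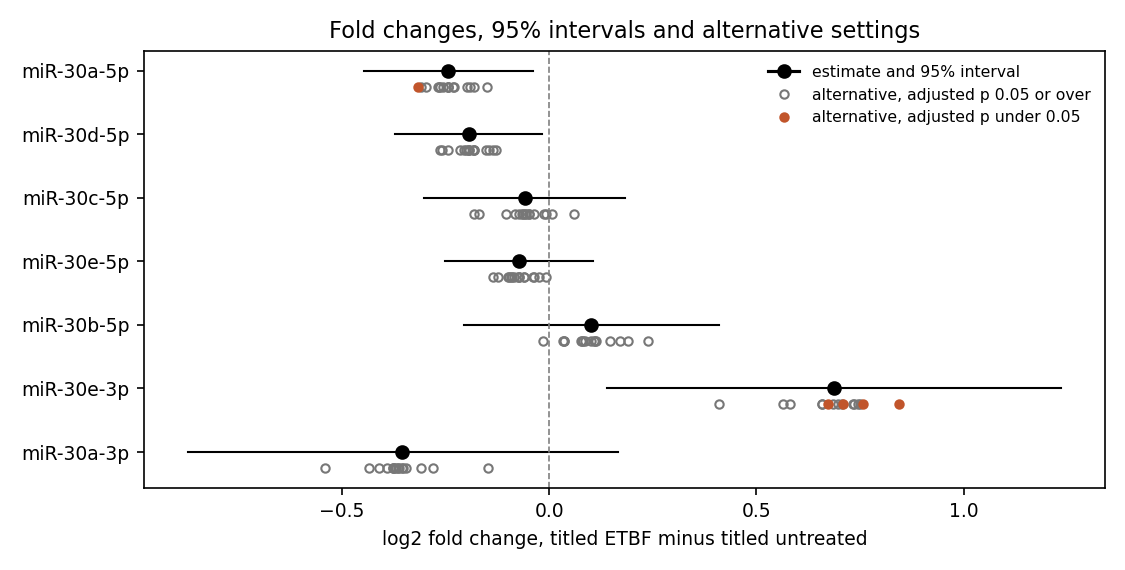
Log2 fold change of each tested miR-30 entry, titled ETBF minus titled untreated, with its 95% interval (black) and its value under each of 16 alternative settings (small circles; filled where the adjusted p was under 0.05). The intervals of miR-30a-5p, miR-30d-5p and miR-30e-3p leave out 0, and filled circles appear for miR-30e-3p in 4 settings and for miR-30a-5p in 1.

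The guides' summed level was 14293, 13490 and 13543 CPM in the titled untreated and 12878, 11350 and 12256 in the titled ETBF libraries. After TMM scaling it was thus lower in each titled ETBF library. Before that scaling, miR-30 entries had their highest share of counts, 1.58%, in titled ETBF replicate 1, whose TMM factor was 1.19. Within the guides' sum the make-up changed little. miR-30a-5p was 50.9% ± 0.558 of the guides' counts in the titled untreated and 48.7% ± 0.627 in the titled ETBF libraries, miR-30d-5p 23.9% ± 0.291 and 23.7% ± 0.860, and miR-30c-5p 12.2% ± 0.670 and 13.2% ± 0.784 (SD, n = 3). miR-30e-5p was 9.50% ± 0.210 and 10.2% ± 0.753, and miR-30b-5p 3.40% ± 0.218 and 4.08% ± 0.338. The share of miR-30a-5p ran from 50.3 to 51.4% in one group and from 48.1 to 49.4% in the other, without overlap, and that of miR-30b-5p from 3.17 to 3.61% and from 3.70 to 4.34%, also without overlap. As shares of 1 total these values are not independent of each other.

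**Figure D3:**
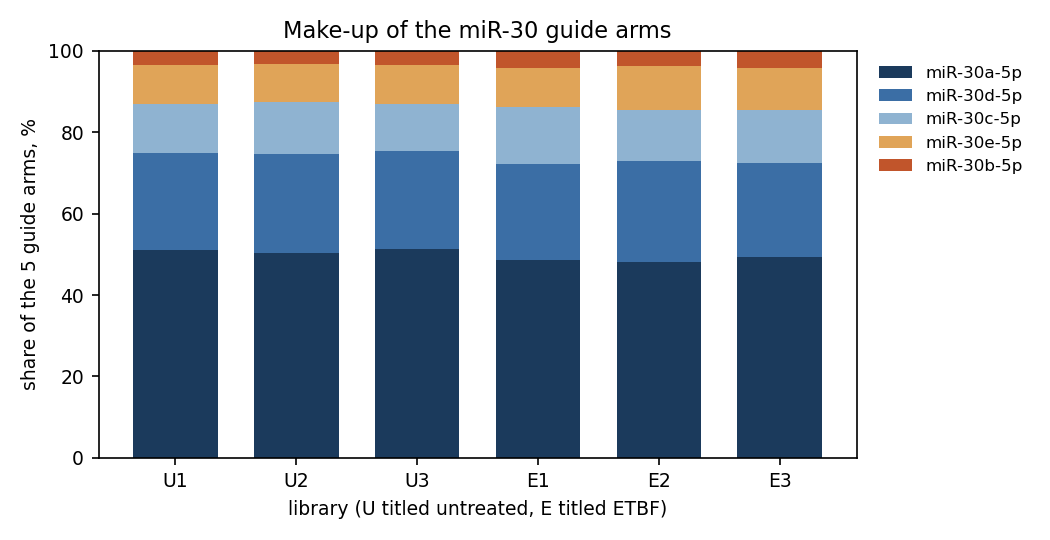
Share of each guide arm in the summed counts of the 5 miR-30 guides, in percent, for the 3 titled untreated (U) and 3 titled ETBF (E) libraries. miR-30a-5p fills 50.3 to 51.4% of the titled untreated and 48.1 to 49.4% of the titled ETBF bars, and the order of the guides is the same in all 6.

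The pair miR-30b-5p and miR-30d-5p, from 1 cluster, was compared as a ratio within each library, which needs no scaling. miR-30b-5p made up 13.2, 11.6 and 12.5% of the pair in the titled untreated and 15.6, 13.0 and 15.4% in the titled ETBF libraries. Titled untreated replicate 1 lay above titled ETBF replicate 2, so the groups overlapped. The log2 ratio was -2.81 ± 0.112 and -2.54 ± 0.168 (SD, n = 3), a difference of 0.27 (exact permutation test, two-sided, p = 0.2, and 0.3 adjusted over the 3 ratios compared). With 3 libraries against 3, p cannot fall below 0.1.

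The arms of miR-30e were the least one-sided of the family. Over the 6 libraries its 5p arm had 2192 counts and its 3p arm 481, a ratio of 4.56. The ratio was 60.6 for miR-30a, 130 for miR-30d (5319 against 41) and 208 for miR-30b (831 against 4). For miR-30c it was 39.6 over both loci, from 5p counts that may be counted at both.

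miR-30e-3p showed the widest difference between the titled groups in the family. Its counts were 32, 83 and 75 in the titled untreated and 74, 72 and 145 in the titled ETBF libraries, or 155.7, 229.2 and 240.2 against 249.2, 324.8 and 449.1 CPM. No titled ETBF library lay below a titled untreated one, but titled untreated replicate 3 and titled ETBF replicate 1 were close. The means were 208 ± 46.0 and 341 ± 101 CPM (SD, n = 3). The fitted log2 fold change was 0.69, or 1.61-fold (SE 0.24, interval 0.14 to 1.24, adjusted p = 0.0815).

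That value sat near the threshold and turned on single libraries. It was positive in all 16 alternatives. It passed in 4 of them, among these without titled ETBF replicate 1 (0.84, adjusted p = 0.000572), with upper-quartile scaling (0.76, adjusted p = 0.0294) and with no filter on low counts (0.67, adjusted p = 0.00104). Without titled ETBF replicate 3, the highest library, it was 0.41 with an adjusted p of 0.254. The adjusted p ran from 0.000572 to 0.254 over the alternatives.

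Set against its own 5p arm, miR-30e-3p was 10.4, 15.3 and 15.4% of the counts of both arms in the titled untreated and 17.0, 20.7 and 26.2% in the titled ETBF libraries. The groups did not overlap, though the 95% Wilson interval of titled ETBF replicate 1, 13.7 to 20.8%, took in the values of titled untreated replicates 2 and 3. The mean share was 13.7% ± 2.86 and 21.3% ± 4.63 (SD, n = 3). The log2 ratio of 3p to 5p was higher by 0.76 in the titled ETBF libraries, 1.70-fold (exact permutation test, two-sided, p = 0.1, the smallest this design allows, and 0.3 adjusted over 3 ratios). Leaving out titled untreated replicate 1 gave 0.55, leaving out titled ETBF replicate 3 gave 0.56 and leaving out titled ETBF replicate 1 gave 0.95. Being a ratio within a library, it needs no scaling, and counts of other entries do not enter it. The share of library counts held by miR-148a-3p was 26.3, 38.2 and 33.5% in titled untreated replicates 1, 2 and 3. In titled ETBF replicates 1, 2 and 3 it was 33.1, 42.6 and 51.1%. Both this share and that of miR-30e-3p were lowest in titled untreated replicate 1 and highest in titled ETBF replicate 3. Whether the arm ratio is related to the make-up of the library was not tested.

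The arms of miR-30a, whose 3p arm has the same seed, did not separate in that way. miR-30a-3p was 1.51, 1.72 and 1.76% of both arms in the titled untreated and 1.74, 1.14 and 1.61% in the titled ETBF libraries, and the groups overlapped. The difference in log2 ratio was -0.16 (exact permutation test, two-sided, p = 0.6, and 0.6 adjusted over 3 ratios) and turned to 0.0137 without titled ETBF replicate 2. In CPM, miR-30a-3p had 111.9, 118.8 and 124.9 against 111.1, 63.2 and 99.1, from 14 to 43 counts a library. These CPM did not overlap between the groups, but the lowest titled untreated and the highest titled ETBF library were almost level. Its log2 fold change was -0.35 (SE 0.23, interval -0.87 to 0.17, adjusted p = 0.315). The difference between the responses of the 2 hairpins' arms was not tested.

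**Figure D4:**
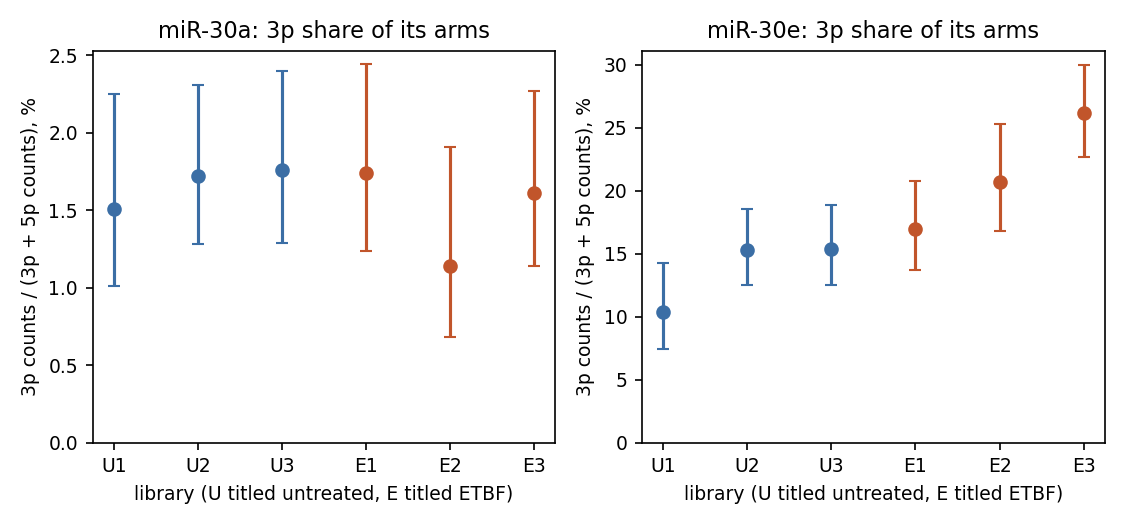
Counts of the 3p arm as a percent of both arms of miR-30a (left) and miR-30e (right; the axes differ in range) in each library, with 95% Wilson intervals for counting error. For miR-30e the titled ETBF libraries (17.0 to 26.2%) lie above the titled untreated ones (10.4 to 15.4%), and for miR-30a the groups overlap.

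The remaining 3p arms were near the limit of detection, where 3 counts came to between 8.29 CPM in the most favourable library and 14.6 CPM in the least. miR-30c-2-3p had 7, 11 and 15 counts in the titled untreated and 11, 6 and 15 in the titled ETBF libraries, and miR-30d-3p 3, 13 and 5 against 7, 5 and 8. miR-30c-1-3p and miR-30b-3p had 0 to 2 counts in every library. The 3p arms tell the miR-30c loci apart, which the 5p arm cannot: 7 of their 72 counts, 9.72% (95% exact binomial interval 4.0 to 19.0%, for counting error only, over counts pooled from the 6 libraries), came from the NFYC locus and 65 from the LINC00472 locus. Between hairpins of the family, the 3p share of both arms ran from 0.479% (miR-30b) to 18.0% (miR-30e). Which locus supplied miR-30c-5p was therefore not tested by this split. The 4 remaining 3p arms were below the filter on low counts. With no filter all 11 entries were tested, and of them miR-30e-3p alone passed. What size of difference could have been detected in the 4 was not tested.

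By cluster, the tested members from LINC00472 alone, miR-30a-5p and miR-30a-3p, both had negative log2 fold changes (-0.24 and -0.35). They are arms of the same hairpin. miR-30c-2-3p, from the other hairpin there, was below the filter, with means of 37.5 CPM in the titled untreated and 36.9 in the titled ETBF libraries. From NFYC alone, miR-30e-5p was close to 0 (-0.07) and miR-30e-3p positive (0.69). miR-30c-5p (-0.06) has loci in both and could be placed in neither. From the cluster of miR-30b and miR-30d, miR-30d-5p was negative (-0.19) and miR-30b-5p positive (0.10). None of the tested members passed.

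Entries outside the family that followed the guides most closely over the 6 libraries, by Pearson r of log2 CPM among 188 tested entries, were miR-27b-3p for miR-30a-5p (0.983), miR-194-5p for miR-30d-5p (0.980), let-7d-5p for miR-30c-5p (0.975), miR-708-5p for miR-30e-5p (0.975), miR-409-3p for miR-30b-5p (0.919) and miR-379-5p for the mean of the 5 guides (0.974). With 6 points, the shared scaling and the shared groups, values this high are a description of these libraries. miR-27b-3p had 8479 ± 367 and 7270 ± 616 CPM (SD, n = 3; log2 fold change -0.22, SE 0.10, adjusted p = 0.138). miR-194-5p had 6465 ± 110 and 5286 ± 487 CPM (-0.29, SE 0.09, adjusted p = 0.0666).

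Other miRNAs that restrain the epithelial-mesenchymal transition were read from a list of 10: the miR-200 family, miR-34a-5p, miR-203a, miR-205-5p, miR-101-3p and miR-145-5p. All 10 were tested. At an adjusted p under 0.05 (edgeR), 0 were higher and 0 lower in the titled ETBF libraries, beside 10.8% and 3.59% of all tested entries, and 2 had an unadjusted p under 0.05, beside 33.8% of all. Their median log2 fold change was -0.11, beside -0.03 over all tested entries, with 7 of 10 negative, beside 51.8%. The most abundant were miR-203a, which keeps epidermal cells from proliferating, at 13190 ± 1136 and 10660 ± 966 CPM (-0.31, SE 0.11, adjusted p = 0.0838), and miR-200b-3p, which represses ZEB1 and ZEB2, at 5906 ± 175 and 5786 ± 350 CPM (SD, n = 3; -0.03, SE 0.09, adjusted p = 0.810).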

How the data were processed

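Per the labels, exosomes were collected by centrifugation and their RNA was extracted with Trizol. The deposited files hold raw whole-number counts per mature miRNA entry. The tools named in the submitters' processing notes are featureCounts, Trimmomatic and FastQC, with the build GRCh37.p5. The aligner, all versions and the treatment of reads with several positions are not stated there or in the labels. Entries kept by edgeR's filterByExpr (minimum count 10; 195 of 2575) were scaled by TMM (factors 0.776 to 1.19) and tested over the whole table with edgeR 4.0.16's quasi-likelihood F-test in R 4.3.3, two-sided, with Benjamini-Hochberg adjustment. The SE of a log2 fold change is its size divided by the root of F. Ratios used a pseudocount of 0.5 and exact permutation in scipy 1.17.1. Replicates differed by far more than sampling noise (chi-square over degrees of freedom 10.0 to 104). This did not hold for each miR-30 entry. In the titled untreated libraries the coefficient of variation of miR-30d-5p was 2.28%, where counting error alone would give 3.28%. That of miR-30e-3p was 22.1%, against 13.4%. Named entries are all miR-30 arms, the entry most correlated with each guide, and from the list of related miRNAs the 2 most abundant and any that passed. Members and lists were chosen with earlier results of these data known. Alternatives were other scalings, filters, DESeq2 1.42.0, limma-voom 3.58.1, a replicate block, miR-30c-5p halved, structural RNA entries left out, other pseudocounts and each library left out. The code was tested on simulated data.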

Additional observations from a re-analysis of the deposited data

How the results depend on the processing

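All alternatives were planned. Over 16 alternatives for each of 7 tested miR-30 entries, 104 of 112 log2 fold changes kept their direction and side of the threshold, 5 newly passed and 3 changed sign. The count of miR-30 entries called, 0, became 1 with upper-quartile scaling, 1 with no filter and 1 with the replicate block, each time miR-30e-3p, and 0 to 2 when single libraries were left out. The count of all entries called, 28, became 51 with no filter and 17 to 59 when single libraries were left out, and upper-quartile scaling gave 36 higher and 6 lower in place of 21 and 7. Replicate numbers were not treated as pairs: deviations of same-numbered libraries correlated at 0.177, 0.103 and 0.0523, and 5 of 6 libraries correlated best with their own number. With the replicate block miR-30e-3p had 0.71 (adjusted p = 0.00862) and 38 entries were called in all. miR-30c-5p turned to 0.00812 with upper-quartile scaling and ran from -0.182 to 0.0597 with single libraries left out, and miR-30b-5p from -0.0156 to 0.238. The log2 arm ratio of miR-30a ran from -0.281 to 0.0137, that of miR-30e from 0.554 to 0.954 and that of miR-30b to miR-30d from 0.214 to 0.370. The difference in the family's share of counts was -0.588 percentage points without the structural RNA entries and -0.364 to -0.0727 with single libraries left out. Except where fewer libraries or other entries enter by construction, the cause was not tested. The 3p arms of miR-30b, 30c and 30d had at most 15 counts in a library.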
